A study of Mus musculus with 15 samples.

Results

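Transcription factors that specify endothelial cells, or that are linked to an arterial, venous, lymphatic or sinusoidal vessel identity, were followed through 5 endothelial populations sorted from mouse liver. The list holds 38 genes, chosen by name and known function, out of 21173 genes with a probe on the array, and all 38 had a probe. The choice was made with earlier results of these data known, so the shares of factors called are description only. RNA of the sorted cells was hybridised to 15 one-colour Agilent arrays, 3 per population. EC-SP and EC-MP cells came from animals 8 weeks old, and the labels abbreviate the populations as SP and MP, which are taken here to mean side and main population. Side population cells are those that pump out a DNA-binding dye. The other 3 populations, CD157+CD200+, CD157-CD200+ and CD157-CD200-, were separated by the surface proteins CD157, encoded by Bst1, and CD200. No age is given for them, and no strain, genotype or treatment is named for any group. The arrays were run in a search for a marker of endothelial stem cells. The design text calls the samples independent but names no animals, so each p-value covers only how these samples varied, possibly for technical reasons, and the 3 arrays per group limit the precision.

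ETS factors such as Erg and Fli1 switch on the genes that all endothelial cells share. Factors of the GATA, SOXF, FOX and nuclear receptor families add the features of a vessel type on top of them. In liver, the sinusoidal capillaries differ from larger vessels in their scavenger receptors and open pores, and Gata4 and Maf are known to act in that specialised state.

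Values are log2 intensities relative to the array's 75th percentile, so that 0 is the signal at that percentile. A level of 1 gene is compared only with its own level in another population, because probes differ in brightness. A gene entered a test if some group of that fit had its probe well above background on all 3 of its arrays, and 37 of the 38 factors passed. Etv2, an ETS factor of the earliest embryonic endothelium, did not, being well above background on 1 of 3 EC-SP arrays, no EC-MP array, 1 CD157+CD200+ array, 1 CD157-CD200+ array and 2 CD157-CD200- arrays. In all, 31 factors were well above background on all 15 arrays. A difference is called where limma's Benjamini-Hochberg adjusted p over all features is under 0.05. In sorted populations of this kind, fewer cells of a type and less RNA per cell cannot be told apart.

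RefSeq promoter windows of 300 bases (GRCm38.p6, 250 bases before the transcript start and 50 after it) were at hand for 23 of the 38 factors, as 32 windows. Of the factors with a window, Dach1 and Foxc1 had the largest positive and Esrrb and Tfec the largest negative differences between CD157+CD200+ and CD157-CD200-, and a window of each is printed 5′ to 3′. Capitals mark the letters of 5 motif groups on either strand, each with a pair of letter strings. The ETS strings are GGAAGT and also the string CCGGAA. For GATA they are AGATAA and also the string TGATAA. For SOX they are ACAATG and also the string ACAATA. For KLF they are GGGTGTGG and also the string CACCC. For the E-box they are CAGCTG and also the string CATCTG.
Dach1: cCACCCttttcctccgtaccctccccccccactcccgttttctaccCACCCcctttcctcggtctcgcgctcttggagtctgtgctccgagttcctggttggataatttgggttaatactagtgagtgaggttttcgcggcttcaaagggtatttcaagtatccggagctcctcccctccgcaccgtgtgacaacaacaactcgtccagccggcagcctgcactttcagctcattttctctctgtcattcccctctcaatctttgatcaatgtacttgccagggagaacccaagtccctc
Foxc1: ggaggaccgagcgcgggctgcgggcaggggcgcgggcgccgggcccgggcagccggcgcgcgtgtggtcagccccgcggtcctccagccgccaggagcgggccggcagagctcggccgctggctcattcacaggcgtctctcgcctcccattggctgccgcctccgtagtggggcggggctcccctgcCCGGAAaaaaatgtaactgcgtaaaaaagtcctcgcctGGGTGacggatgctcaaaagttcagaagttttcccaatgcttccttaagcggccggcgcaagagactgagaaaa
Esrrb: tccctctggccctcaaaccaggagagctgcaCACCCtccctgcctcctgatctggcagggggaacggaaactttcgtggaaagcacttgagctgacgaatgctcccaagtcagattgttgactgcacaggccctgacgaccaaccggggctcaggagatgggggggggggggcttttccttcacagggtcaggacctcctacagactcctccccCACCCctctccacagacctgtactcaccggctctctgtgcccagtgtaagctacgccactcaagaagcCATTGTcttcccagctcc
Tfec: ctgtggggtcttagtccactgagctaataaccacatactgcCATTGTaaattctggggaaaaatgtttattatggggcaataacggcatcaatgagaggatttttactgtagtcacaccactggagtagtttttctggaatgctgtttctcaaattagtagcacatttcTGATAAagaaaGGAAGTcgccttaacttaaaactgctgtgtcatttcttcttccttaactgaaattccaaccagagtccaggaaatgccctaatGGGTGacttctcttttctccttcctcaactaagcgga

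The Dach1 window lies at chr14:98169716-98170015 on the minus strand and holds 2 KLF matches and 13 CpG dinucleotides. Foxc1, at chr13:31806396-31806695 on the plus strand, holds 1 ETS match, 1 KLF match and 32 CpG dinucleotides. Esrrb, at chr12:86360867-86361166 on the plus strand and shown for 1 of its starts, holds 2 KLF matches and 1 SOX match with 7 CpG dinucleotides. Tfec, at chr6:16898392-16898691 on the minus strand, holds 1 match each to the ETS, GATA, SOX and KLF letters and 3 CpG dinucleotides. These windows thus ranged widely in CpG content, and the median was 14 in the factors' 32 windows beside 7 in all 32851 windows of the table. ETS letters stood in 18.8% of the factors' windows beside 32.1% of all windows, GATA letters in 9.4% beside 18.6%, and SOX letters in 15.6% beside 19.7%. No factor window held the longer KLF string. KLF letters stood in 68.8% beside 57.5% and E-box letters in 21.9% beside 30.6%. The ETS letter strings can overlap each other, and CACCC is part of the reverse complement of GGGTGTGG. A match describes the letters of the window only.

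The sort itself was visible in the genes of its markers. Bst1 was higher in EC-SP than in EC-MP by 4.35 ± 0.24 on the log2 scale (SE, n = 3 per group, adjusted p = 2.6e-05) and Cd200 by 3.40 ± 0.26 (adjusted p = 8.8e-05). In CD157+CD200+ against CD157-CD200-, Bst1 was higher by 5.74 ± 0.25 (adjusted p = 5.3e-07) and Cd200 at least 349-fold (adjusted p = 7.9e-09). The general endothelial genes Pecam1 and Cdh5 were well above background on every array. All 8 genes of a general endothelial list were so in each population. Pecam1 differed by 0.80 ± 0.27 in EC-SP against EC-MP (adjusted p = 0.077, and 0.025 with the replicate number as a block) and was 1.09 ± 0.16 higher in CD157+CD200+ than in CD157-CD200- (adjusted p = 0.0014). Cdh5 gave 0.10 ± 0.24 and -0.16 ± 0.22 (adjusted p = 0.83 and 0.75). The 75th percentiles lay between 156.7 and 298.2 intensity units, and between 57.3% and 69.4% of spots exceeded background clearly.

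Of the 37 tested factors, 14 were called in both EC-SP against EC-MP and CD157+CD200+ against CD157-CD200-, and 13 were called in none of the 4 pairwise comparisons. As the list was chosen with earlier results of these data known, its shares beside those of all features are description only. In EC-SP against EC-MP, 13 of the 37 tested factors rose and 7 fell, so 54.1% were called beside 16.5% of all 23971 features (9.15% higher and 7.39% lower), and their median log2 difference was 0.63 beside 0.00. There the replicate number as a block gave 17 risers and 9 fallers, and it called 5255 of all features, against 3966 without it. In CD157+CD200+ against CD157-CD200-, 9 rose and 8 fell, which is 45.9% beside 15.2% of all 23701 features (8.12% higher and 7.11% lower), with a median of 0.15 beside 0.01. With the replicate number as a block, 14 rose and 10 fell in that comparison, where the block called 6923 of all features, against 3609 without it. These sorts share no array, and the 14 factors called in both had the same direction in each, which is 14 of the 20 and 14 of the 17. The shares of all features called in both sorts, agreeing in direction or called in none were not counted. The counts of 14 and 13 therefore have no background beside them. In EC-SP against EC-MP or in the subsets, Foxc2, Foxf1, Dach1, Tcf15, Tbx3 and Esrrb passed the filter only through groups where they were high. The 8 that rose in both were Lmo2, Gata6, Sox7, Foxc2, Foxf1, Dach1, Tcf15 and Tbx3. The 6 that fell in both were Gata4, Nr2f1, Maf, Meis1, Esrrb and Tfec. Counts rested in part on the filter on dim probes. Without it, more features were tested and the EC-SP calls of Fli1, Lmo2, Gata6, Nr2f1, Foxo1 and Meis1 were lost (adjusted p = 0.051, 0.053, 0.12, 0.092, 0.084 and 0.11), as were those of Gata4 and Hlx in CD157+CD200+ against CD157-CD200- (0.053 and 0.091). In CD157-CD200+ against CD157-CD200- the calls of Ets2, Lmo2, Meis1, Hlx and Tfec were lost in the same way (0.063, 0.060, 0.066, 0.064 and 0.085).

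**Figure D1:**
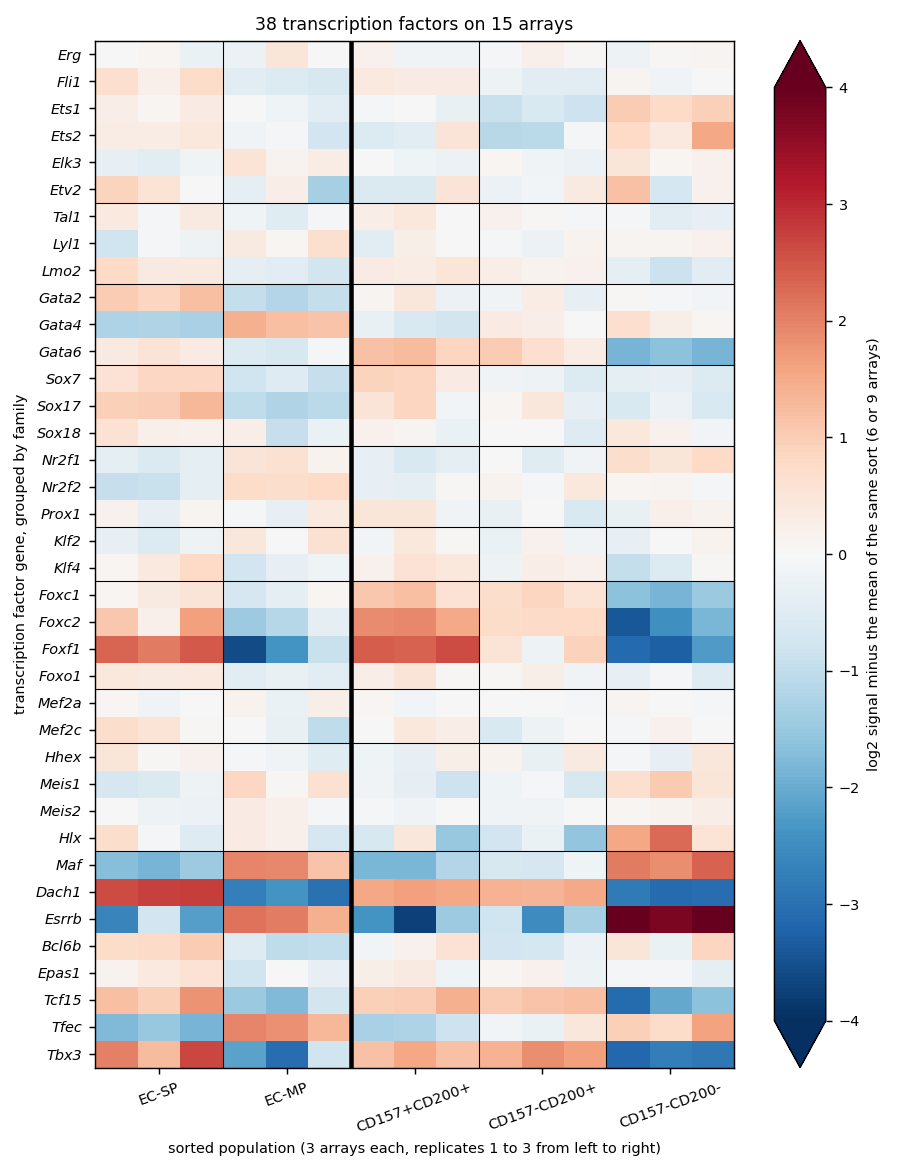
Heat map of the 38 factors (rows, grouped by family) on the 15 arrays (columns), coloured by log2 signal minus the gene's mean over the arrays of the same sort, with colours capped at the ends of the scale; the thick line parts EC-SP and EC-MP from the 3 subsets. Foxf1, Dach1, Tcf15 and Tbx3 are red in EC-SP and CD157+CD200+ and blue in EC-MP and CD157-CD200-, and Maf, Esrrb and Tfec show the opposite.

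**Figure D2:**
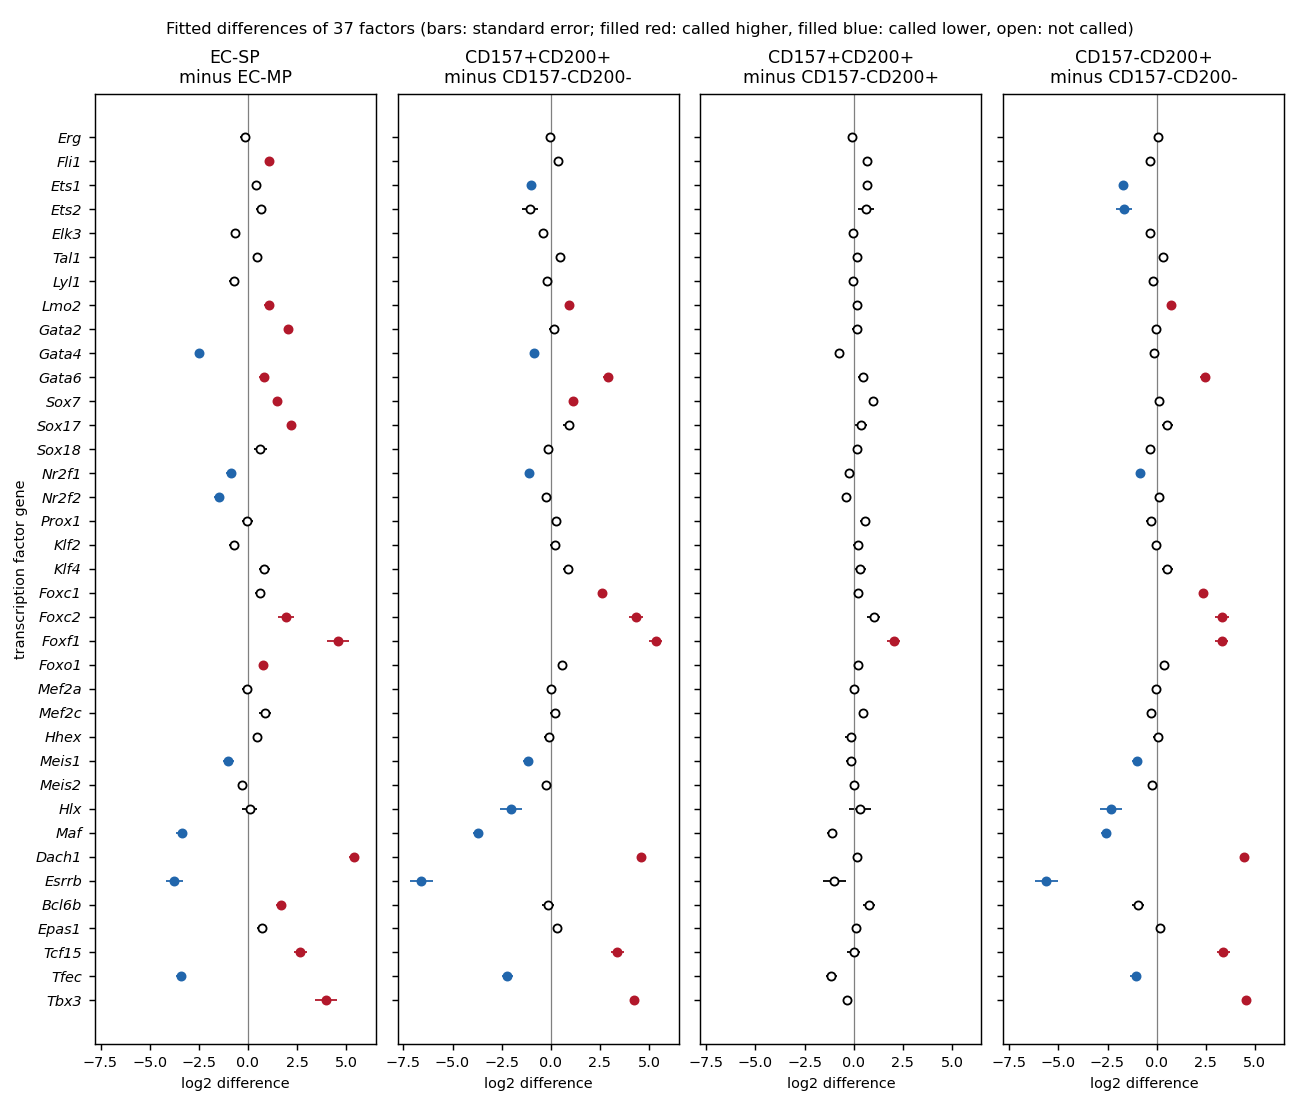
Fitted log2 differences (horizontal axes) of the 37 tested factors (vertical axis) in 4 comparisons, with standard errors as bars, n = 3 arrays per group. Filled red points were called higher, filled blue points called lower and open points not called; CD157+CD200+ minus CD157-CD200+ has 1 filled point, Foxf1.

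Among the ETS factors, the endothelial activator Erg was called nowhere, while Fli1 was called in EC-SP and Ets1 in the subsets. Erg averaged 1.16 ± 0.18 in EC-SP and 1.31 ± 0.38 in EC-MP (SD, n = 3 each), with a difference of -0.16 ± 0.26 (SE, adjusted p = 0.75). In the subsets Erg averaged 1.02 ± 0.18 in CD157+CD200+, 1.12 ± 0.15 in CD157-CD200+ and 1.05 ± 0.17 in CD157-CD200-. Its probes gave -0.03 and 0.24 for CD157+CD200+ against CD157-CD200-, opposite in sign. Fli1, its close relative, gave 2.54, 2.09 and 2.63 in EC-SP, against 1.46, 1.34 and 1.23 in EC-MP. The groups did not overlap, and Fli1 was 1.08 ± 0.23 higher in EC-SP (adjusted p = 0.014). In the subsets Fli1 gave 2.96, 2.91 and 2.92 in CD157+CD200+, 2.39, 2.17 and 2.17 in CD157-CD200+ and 2.70, 2.45 and 2.59 in CD157-CD200-. The CD157-CD200+ arrays were the lowest, and the F test across the 3 subsets passed (adjusted p = 0.042) while no pair did. With the replicate block the difference of 0.69 ± 0.16 between CD157+CD200+ and CD157-CD200+ passed too (adjusted p = 0.019, against 0.098 without it, and 0.012 under normexp, another background correction), and with the block so did that of 0.35 ± 0.16 from CD157-CD200- (adjusted p = 0.036, against 0.19).

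Ets1, an activator of angiogenic genes, had signals of 3.50, 3.60 and 3.30 in CD157+CD200+, 2.69, 2.99 and 2.75 in CD157-CD200+ and 4.6, 4.35 and 4.54 in CD157-CD200-. The 3 subsets were fully separated, with CD157-CD200+ lowest. Ets1 fell by 1.03 ± 0.17 in CD157+CD200+ (adjusted p = 0.0029) and by 1.69 ± 0.17 in CD157-CD200+ (adjusted p = 1.6e-04), both against CD157-CD200-. In the dye-efflux sort the same gene gave 4.53, 4.35 and 4.59 in EC-SP, against 4.25, 4.10 and 3.83 in EC-MP. The EC-SP arrays were higher, but the difference of 0.43 ± 0.22 was not called (adjusted p = 0.23). Ets2 showed a similar order in the subsets, with means of 4.46 ± 0.58 in CD157+CD200+, 3.85 ± 0.57 in CD157-CD200+ and 5.52 ± 0.59 in CD157-CD200- (SD, n = 3 each). Only the difference of -1.67 ± 0.41 between CD157-CD200+ and CD157-CD200- was called among the 3 pairs (adjusted p = 0.025). It was lost without CD157-CD200+ replicate 1 or 2 or CD157-CD200- replicate 1 or 3 (adjusted p between 0.063 and 0.098). The difference of -1.06 ± 0.41 between CD157+CD200+ and CD157-CD200- passed with the replicate block (adjusted p = 0.0013, against 0.12 without it). Elk3, a repressor of the family, averaged 3.49 ± 0.14 in EC-SP and 4.14 ± 0.21 in EC-MP, a difference of -0.65 ± 0.22 that was not called (adjusted p = 0.080). It passed with the block (0.049), under normexp (0.013), with quantile normalization (0.027), with the authors' deposited series table (0.033) and with all 15 arrays in 1 fit (0.023). In CD157+CD200+ against CD157-CD200- the Elk3 difference of -0.39 passed with the block alone (adjusted p = 0.029, against 0.21).

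The blood and vessel factors Tal1, Lyl1 and Lmo2 work as a complex with GATA proteins in haemangioblasts. Lmo2, the bridging subunit, gave 4.6, 4.17 and 4.20 in EC-SP, against 3.41, 3.34 and 3.06 in EC-MP. It was 1.06 ± 0.23 higher in EC-SP with no overlap (adjusted p = 0.015), a call lost without EC-SP replicate 1 (adjusted p = 0.052). In the subsets Lmo2 gave 3.95, 3.91 and 4.12 in CD157+CD200+, 3.88, 3.77 and 3.80 in CD157-CD200+ and 3.27, 2.77 and 3.17 in CD157-CD200-. Both CD200+ subsets lay above CD157-CD200-, by 0.93 ± 0.18 for CD157+CD200+ (adjusted p = 0.0065) and by 0.75 ± 0.18 for CD157-CD200+ (adjusted p = 0.023). That of CD157-CD200+ was lost without any CD157-CD200+ array or without CD157-CD200- replicate 2 (adjusted p between 0.057 and 0.092). Tal1, a basic helix-loop-helix partner of Lmo2, averaged 1.40 ± 0.24 in EC-SP and 0.93 ± 0.21 in EC-MP and was not called (0.48 ± 0.23, adjusted p = 0.21). Its difference of 0.48 ± 0.19 between CD157+CD200+ and CD157-CD200- passed with the block (adjusted p = 0.038, against 0.13) and under normexp (0.036). Lyl1, a paralogue of Tal1, averaged -0.20 ± 0.40 in EC-SP and 0.51 ± 0.27 in EC-MP, and the difference of -0.71 ± 0.27 was not called (adjusted p = 0.12).

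The 3 GATA factors each had a pattern of their own. Gata2, a factor of blood progenitors and vascular endothelium, gave 3.30, 3.16 and 3.49 in EC-SP, against 1.36, 1.12 and 1.36 in EC-MP. It was 2.04 ± 0.22 higher in EC-SP, or 4.10-fold (adjusted p = 4.2e-04). The subsets gave 2.66, 2.99 and 2.30 in CD157+CD200+, 2.41, 2.84 and 2.22 in CD157-CD200+ and 2.60, 2.48 and 2.44 in CD157-CD200-. They overlapped, and the largest difference, 0.16 ± 0.23 between CD157+CD200+ and CD157-CD200+, was not called (adjusted p = 1.0).

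Gata4, known as a regulator of liver sinusoidal identity, gave 2.30, 2.33 and 2.26 in EC-SP, against 4.96, 4.75 and 4.69 in EC-MP. Gata4 thus fell by 2.5 ± 0.21 in EC-SP, with SDs of 0.04 and 0.14 (adjusted p = 1.3e-04). In the subsets it gave 5.36, 5.05 and 4.93 in CD157+CD200+, 5.98, 5.93 and 5.67 in CD157-CD200+ and 6.33, 5.87 and 5.73 in CD157-CD200-. CD157+CD200+ was lowest, at -0.87 ± 0.21 against CD157-CD200- (adjusted p = 0.021), a call lost without CD157-CD200- replicate 1 or CD157+CD200+ replicate 2 or 3 (adjusted p between 0.071 and 0.076). Against CD157-CD200+ the difference was -0.75 ± 0.21 (adjusted p = 0.21, with 0.022 with the block and 0.031 under normexp).

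Gata6, the close relative of Gata4, ran the other way. It gave 1.30, 1.40 and 0.99 in CD157+CD200+, 1.14, 0.80 and 0.42 in CD157-CD200+ and -1.73, -1.52 and -1.73 in CD157-CD200-. Both CD200+ subsets lay above every CD157-CD200- array, by 2.89 ± 0.22 for CD157+CD200+ (adjusted p = 1.5e-05) and by 2.44 ± 0.22 for CD157-CD200+ (adjusted p = 6.3e-05). Under normexp that of CD157-CD200+ was 1.57. In the other sort Gata6 gave 0.15, 0.36 and 0.14 in EC-SP, against -0.74, -0.84 and -0.25 in EC-MP. The difference of 0.82 ± 0.24 was called (adjusted p = 0.046) but was lost on leaving out any array other than EC-MP replicate 3 (adjusted p between 0.083 and 0.14) and with the authors' deposited series table (0.66, adjusted p = 0.10).

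Of the SOXF factors, which act in arterial specification, Sox17 and Sox7 were higher in EC-SP and Sox18 was not called. Sox17 gave 3.63, 3.65 and 3.99 in EC-SP, against 1.64, 1.47 and 1.59 in EC-MP. The groups stood far apart, at 2.19 ± 0.22 or 4.56-fold (adjusted p = 3.0e-04). The subsets gave 3.42, 3.76 and 2.78 in CD157+CD200+, 2.97, 3.34 and 2.57 in CD157-CD200+ and 2.28, 2.67 and 2.28 in CD157-CD200-. Replicate 3 was the lowest in both CD200+ subsets. The difference of 0.91 ± 0.29 between CD157+CD200+ and CD157-CD200- was not called (adjusted p = 0.064), but passed with the block (0.0045), under normexp (0.030), with all 15 arrays in 1 fit (0.026) and without CD157+CD200+ replicate 3 (0.021). Between CD157-CD200+ and CD157-CD200- the difference of 0.55 ± 0.29 passed with the block alone (adjusted p = 0.038, against 0.33). The other Sox17 probe gave the same directions for these differences, but -0.05 in place of 0.36 between CD157+CD200+ and CD157-CD200+.

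Sox7 gave 4.0, 4.27 and 4.25 in EC-SP, against 2.64, 2.90 and 2.52 in EC-MP. It was 1.49 ± 0.22 higher in EC-SP, without overlap (adjusted p = 0.0023). In the subsets it gave 4.69, 4.66 and 4.12 in CD157+CD200+, 3.65, 3.59 and 3.24 in CD157-CD200+ and 3.43, 3.47 and 3.24 in CD157-CD200-. Here CD157+CD200+ stood alone above both others, by 1.11 ± 0.21 over CD157-CD200- (adjusted p = 0.0057) and by 0.99 ± 0.21 over CD157-CD200+ (adjusted p = 0.071, with 0.0088 with the block, 0.022 under normexp, 0.028 with all 15 arrays in 1 fit and 0.046 without CD157+CD200+ replicate 3). CD157-CD200+ and CD157-CD200- differed by 0.11 ± 0.21 (adjusted p = 0.87). Sox18 averaged 2.96 ± 0.23 in EC-SP and 2.34 ± 0.59 in EC-MP (0.63 ± 0.32, adjusted p = 0.22), and lay between 2.83 and 3.75 in all 9 subset arrays.

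Among the venous and lymphatic factors, the COUP-TF receptors Nr2f1 and Nr2f2 were lower in EC-SP. Nr2f2, which holds venous identity by repressing Notch signalling, gave 0.55, 0.60 and 1.08 in EC-SP, against 2.21, 2.17 and 2.28 in EC-MP. It fell by 1.48 ± 0.23 in EC-SP (adjusted p = 0.0029). In the subsets it gave 2.46, 2.43 and 2.84 in CD157+CD200+, 2.94, 2.74 and 3.21 in CD157-CD200+ and 2.86, 2.91 and 2.75 in CD157-CD200-, which overlapped and were not called (-0.27 ± 0.19 for CD157+CD200+ against CD157-CD200-, adjusted p = 0.46). Nr2f1, its paralogue, gave 3.05, 2.78 and 3.00 in CD157+CD200+, 3.37, 2.92 and 3.26 in CD157-CD200+ and 4.09, 3.89 and 4.18 in CD157-CD200-. Both CD200+ subsets lay below CD157-CD200-, CD157+CD200+ with a difference of -1.11 ± 0.19 (adjusted p = 0.0026) and CD157-CD200+ with a difference of -0.87 ± 0.19 (adjusted p = 0.013, and 0.057 without CD157-CD200+ replicate 2). In the other sort Nr2f1 gave 1.82, 1.59 and 1.81 in EC-SP, against 2.69, 2.78 and 2.32 in EC-MP. The call of -0.86 ± 0.23 (adjusted p = 0.031) was lost on leaving out any array other than EC-MP replicate 3 (adjusted p between 0.063 and 0.10). Prox1, the lymphatic master regulator and also a hepatocyte factor, averaged -0.75 ± 0.26 in EC-SP and -0.72 ± 0.35 in EC-MP, and no comparison called it.

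The shear-responsive factors Klf2 and Klf4 missed the threshold in all 4 pairwise comparisons, though several other settings called them. Klf2 averaged 5.83 ± 0.18 in EC-SP and 6.53 ± 0.33 in EC-MP (-0.71 ± 0.25, adjusted p = 0.085), and Klf4 averaged 5.66 ± 0.35 in EC-SP and 4.83 ± 0.31 in EC-MP (0.84 ± 0.27, adjusted p = 0.065). The signs were opposite. Klf2 passed with the block (adjusted p = 0.035), under normexp (0.020), with quantile normalization (0.028), with the authors' deposited series table (0.041) and with all 15 arrays in 1 fit (0.039). Klf4 passed with the block (0.021), under normexp (0.032) and with all 15 arrays in 1 fit (0.041). In CD157+CD200+ against CD157-CD200-, Klf2 differed by 0.19 ± 0.22 (adjusted p = 0.69) and Klf4 by 0.88 ± 0.27 (adjusted p = 0.053). That of Klf4 passed in 6 other settings, which were the block (0.011), normexp (0.034), only probes above background on every array (0.047), the mean of a gene's probes (0.049), all 15 arrays in 1 fit (0.042) and leaving out CD157-CD200- replicate 3 (0.013). Both were well above background on every array.

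The forkhead factors held some of the largest differences of the list. Foxf1, known from lung and visceral vessels, gave 1.65, 1.42 and 1.80 in EC-SP, against -4.26, -3.07 and -1.55 in EC-MP, where it was well above background on 2 of 3 arrays. It was 4.59 ± 0.57 higher in EC-SP (adjusted p = 8.9e-04), but 3.05 under normexp and 1.87 by its other probe, all in the same direction. The subsets gave 1.67, 1.62 and 1.86 in CD157+CD200+, -0.19, -0.94 and 0.17 in CD157-CD200+ and -3.85, -4.01 and -3.02 in CD157-CD200-, with 1 CD157-CD200- array well above background. The 3 subsets did not overlap, in the order CD157+CD200+, CD157-CD200+ and CD157-CD200- from high to low. Foxf1 was 5.34 ± 0.33 higher in CD157+CD200+ than in CD157-CD200- (adjusted p = 4.5e-06) and 3.30 ± 0.33 higher in CD157-CD200+ than in CD157-CD200- (adjusted p = 1.3e-04). Under normexp these were 3.07 and 1.44.

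Foxf1 was also the 1 factor called between CD157+CD200+ and CD157-CD200+, where 1.05% of all features were called and 0.802% were called higher. The difference was 2.04 ± 0.33 (adjusted p = 0.018). It was lost on leaving out any CD157+CD200+ array or CD157-CD200+ replicate 1 or 2 (adjusted p between 0.059 and 0.079), without a filter on dim probes (0.057) and with all 15 arrays in 1 fit (0.083). With the block 3 factors rose and 3 fell in this comparison. They were Foxf1, Fli1 and Sox7, higher in CD157+CD200+, and Gata4, Maf and Tfec, lower. Under normexp Ets1 (0.60, adjusted p = 0.048) and Foxc2 (0.87, adjusted p = 0.0070) were called higher there too.

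Foxc2, a factor of lymphatic valves and arteries, gave 0.54, -0.32 and 1.12 in EC-SP, against -1.98, -1.66 and -0.90 in EC-MP. It was 1.96 ± 0.41 higher in EC-SP (adjusted p = 0.011). The subsets gave 1.48, 1.51 and 1.1 in CD157+CD200+, 0.31, 0.35 and 0.37 in CD157-CD200+ and -3.80, -2.88 and -2.25 in CD157-CD200-, where 2 of 3 arrays were well above background. Foxc2 stood 4.34 ± 0.34 higher in CD157+CD200+ (adjusted p = 1.9e-05) and 3.32 ± 0.34 higher in CD157-CD200+ (adjusted p = 1.5e-04) than in CD157-CD200-, and under normexp 2.52 and 1.65. Foxc1, its paralogue, whose promoter window is printed above, gave 0.32, 0.43 and -0.20 in CD157+CD200+, -0.08, 0.10 and -0.21 in CD157-CD200+ and -2.40, -2.62 and -2.27 in CD157-CD200-. The CD200+ subsets overlapped each other and lay above CD157-CD200-, by 2.61 ± 0.21 for CD157+CD200+ (adjusted p = 2.4e-05) and by 2.37 ± 0.21 for CD157-CD200+ (adjusted p = 6.3e-05), or 1.38 and 1.25 under normexp. In the other sort Foxc1 gave -1.35, -1.07 and -0.90 in EC-SP, against -2.10, -1.78 and -1.34 in EC-MP, which overlapped (0.63 ± 0.26, adjusted p = 0.14, and 0.048 with the block). Foxo1, a growth and metabolism regulator, averaged 3.73 ± 0.03 in EC-SP and 2.94 ± 0.09 in EC-MP. The call of 0.79 ± 0.20 (adjusted p = 0.029) was lost on leaving out any 1 of the 6 arrays (adjusted p between 0.062 and 0.10), with quantile normalization (0.63, adjusted p = 0.059) and with the authors' deposited series table (0.63, adjusted p = 0.067). In CD157+CD200+ against CD157-CD200- the Foxo1 difference of 0.59 ± 0.20 passed with the block (adjusted p = 0.0038, against 0.083), under normexp (0.036) and with all 15 arrays in 1 fit (0.046). That of 0.35 ± 0.20 in CD157-CD200+ passed with the block alone (0.034, against 0.38).

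Foxf1 and Foxc2 are neighbours on chromosome 8, where RefSeq (GRCm38.p6) lists Fendrr, Foxf1, Mthfsd, Foxc2 and Foxl1 in that order. The genes around them were looked up after the values of Foxf1 and Foxc2 had been seen. Mthfsd, between them, averaged 3.92 ± 0.24 in EC-SP and 4.28 ± 0.37 in EC-MP (-0.36 ± 0.26, adjusted p = 0.41), and it differed by -0.13 ± 0.31 in CD157+CD200+ against CD157-CD200- (adjusted p = 0.88). Fendrr and Foxl1 did not pass the filter on dim probes.

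**Figure D3:**
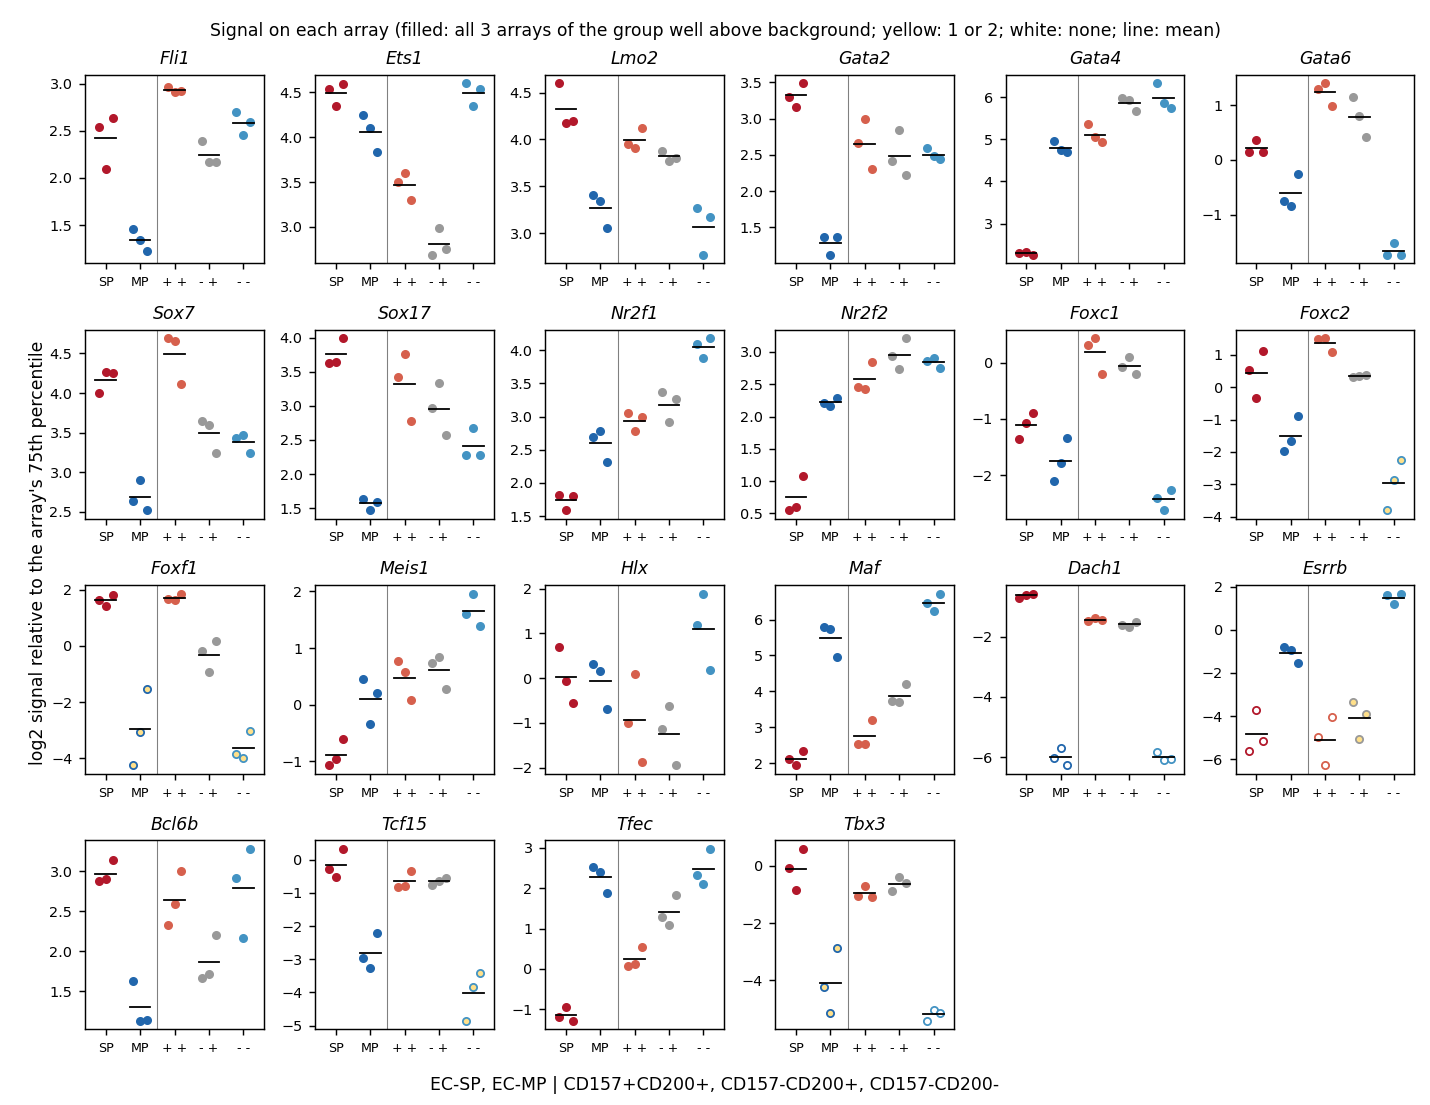
Log2 signal relative to the array's 75th percentile (vertical axes, a scale of its own per gene) on each array of EC-SP, EC-MP, CD157+CD200+, CD157-CD200+ and CD157-CD200- (horizontal axes) for the 22 factors called in EC-SP minus EC-MP or CD157+CD200+ minus CD157-CD200- with a difference of at least 1. Lines are group means, filled points come from groups with all 3 arrays well above background, yellow points from groups with 1 or 2 and white points from groups with none; Dach1 is white in EC-MP and CD157-CD200-, Esrrb in EC-SP and CD157+CD200+.

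The MEF2 factors, which act in vessel growth and shear sensing, were not called. Mef2a averaged 9.23 ± 0.11 in EC-SP and 9.29 ± 0.26 in EC-MP, and between 8.90 and 8.94 in the means of the 3 subsets. The 3 Mef2a probes gave -0.06, 0.13 and 0.20 in EC-SP against EC-MP, so their signs differed. Mef2c averaged 2.43 ± 0.34 in EC-SP and 1.56 ± 0.53 in EC-MP (0.87 ± 0.32, adjusted p = 0.097, with 0.022 with the block and 0.034 with all 15 arrays in 1 fit).

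Of the homeobox factors, Meis1 and Hlx were lower in CD157+CD200+ cells and Hhex and Meis2 were not called. Meis1, a partner of HOX proteins, gave 0.78, 0.57 and 0.08 in CD157+CD200+, 0.74, 0.85 and 0.28 in CD157-CD200+ and 1.60, 1.96 and 1.39 in CD157-CD200-. It fell by 1.17 ± 0.25 in CD157+CD200+ (adjusted p = 0.011) and by 1.02 ± 0.25 in CD157-CD200+ (adjusted p = 0.026) against CD157-CD200-. That of CD157-CD200+ was lost without CD157-CD200+ replicate 1 or 3 or CD157-CD200- replicate 1 or 2 (adjusted p between 0.065 and 0.098). In the other sort Meis1 gave -1.07, -0.96 and -0.60 in EC-SP, against 0.45, -0.34 and 0.21 in EC-MP. The call of -0.99 ± 0.27 (adjusted p = 0.037) was lost without EC-SP replicate 1 or 2 or EC-MP replicate 1 or 3 (adjusted p between 0.091 and 0.13).

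Hlx, a homeobox factor of endothelial sprouting and liver growth, gave -1.0, 0.09 and -1.88 in CD157+CD200+, -1.14, -0.63 and -1.95 in CD157-CD200+ and 1.19, 1.89 and 0.18 in CD157-CD200-. Replicate 2 was highest and replicate 3 lowest in every subset. Hlx differed by -2.02 ± 0.57 in CD157+CD200+ against CD157-CD200- (adjusted p = 0.040), which was lost with the authors' deposited series table (0.050) and without CD157+CD200+ replicate 1 or 3, CD157-CD200+ replicate 1 or CD157-CD200- replicate 1 or 2 (adjusted p between 0.061 and 0.13). In CD157-CD200+ against CD157-CD200- it differed by -2.33 ± 0.57 (adjusted p = 0.026), lost without CD157-CD200+ replicate 1 or 3 or CD157-CD200- replicate 1 or 2 (adjusted p between 0.070 and 0.090). With the replicate block these had adjusted p = 1.6e-04 and 1.2e-04. In EC-SP against EC-MP, Hlx gave 0.69, -0.06 and -0.55 in EC-SP, against 0.32, 0.17 and -0.69 in EC-MP, which overlapped (0.09 ± 0.38, adjusted p = 0.91). Hhex, a factor of early endothelium and liver bud, averaged 1.84 ± 0.22 in EC-SP and 1.36 ± 0.21 in EC-MP (0.47 ± 0.23, adjusted p = 0.21). Meis2 averaged 2.62 ± 0.11 in EC-SP and 2.90 ± 0.21 in EC-MP (-0.28 ± 0.22, adjusted p = 0.44).

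Among the remaining factors, Maf, Tfec and Esrrb were low in EC-SP and in CD157+CD200+ cells. Maf, a leucine zipper factor of liver sinusoids and macrophages, gave 2.11, 1.94 and 2.35 in EC-SP, against 5.78, 5.75 and 4.96 in EC-MP. It fell by 3.37 ± 0.28, or 10.3-fold (adjusted p = 1.4e-04). The subsets gave 2.55, 2.55 and 3.21 in CD157+CD200+, 3.73, 3.71 and 4.20 in CD157-CD200+ and 6.46, 6.23 and 6.72 in CD157-CD200-. They formed 3 separate levels, CD157+CD200+ differing from CD157-CD200- by -3.70 ± 0.24 (adjusted p = 6.8e-06) and CD157-CD200+ differing from CD157-CD200- by -2.59 ± 0.24 (adjusted p = 9.0e-05). The step of -1.11 ± 0.24 between CD157+CD200+ and CD157-CD200+ was not called (adjusted p = 0.083), but passed with the block (0.0062) and under normexp (-1.07, adjusted p = 0.046).

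Tfec, a relative of the lysosomal regulators of the MiT family, gave -1.19, -0.94 and -1.28 in EC-SP, against 2.52, 2.39 and 1.89 in EC-MP. It fell by 3.41 ± 0.25 in EC-SP, or 10.6-fold (adjusted p = 6.9e-05). Its subsets were ordered like those of Maf, with 0.08, 0.13 and 0.55 in CD157+CD200+, 1.28, 1.1 and 1.83 in CD157-CD200+ and 2.32, 2.11 and 2.97 in CD157-CD200-, and no overlap. Tfec fell by 2.21 ± 0.28 in CD157+CD200+ (adjusted p = 4.6e-04) and by 1.07 ± 0.28 in CD157-CD200+ (adjusted p = 0.036) against CD157-CD200-. That of CD157-CD200+ was lost without any 1 of CD157+CD200+ replicates 1 and 2, CD157-CD200+ replicates 1 and 2 and CD157-CD200- replicates 1 and 3 (adjusted p between 0.053 and 0.13). Between CD157+CD200+ and CD157-CD200+ the difference was -1.15 ± 0.28 (adjusted p = 0.12, and 0.0066 with the block).

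Esrrb, an orphan nuclear receptor known from pluripotent stem cells, gave -5.61, -3.73 and -5.15 in EC-SP, against -0.80, -0.92 and -1.54 in EC-MP. No EC-SP array was well above background, and Esrrb was lower in EC-SP by at least 6.97-fold (adjusted p = 8.1e-04 for the fitted difference of -3.74 ± 0.45). In the subsets it gave -4.95, -6.29 and -4.03 in CD157+CD200+, -3.35, -5.08 and -3.89 in CD157-CD200+ and 1.63, 1.20 and 1.68 in CD157-CD200-. It was well above background on no CD157+CD200+ array, on 1 CD157-CD200+ array and on all CD157-CD200- arrays. Esrrb was lower in CD157+CD200+ than in CD157-CD200- by at least 58.4-fold (adjusted p = 3.7e-05), and in CD157-CD200+ its fitted difference from CD157-CD200- was -5.61 ± 0.57 (adjusted p = 1.4e-04). Under normexp the 3 differences were -1.19, -2.87 and -2.84, so the folds given as at least do not hold under normexp.

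Dach1, Tcf15, Tbx3 and Bcl6b were higher in EC-SP, and the first 3 of these in CD157+CD200+ cells too. Dach1, a factor that supports coronary artery growth, gave -0.70, -0.59 and -0.56 in EC-SP, against -6.03, -5.70 and -6.28 in EC-MP. It was well above background on no EC-MP array and higher in EC-SP by at least 9.90-fold (adjusted p = 1.6e-05). The subsets gave -1.47, -1.38 and -1.45 in CD157+CD200+, -1.61, -1.66 and -1.49 in CD157-CD200+ and -5.84, -6.09 and -6.06 in CD157-CD200-, where again no array was well above background. Dach1 was higher in CD157+CD200+ by at least 6.03-fold (adjusted p = 1.9e-07) and higher in CD157-CD200+ by at least 5.42-fold (adjusted p = 3.0e-07) than in CD157-CD200-. The CD200+ subsets differed from each other by 0.15 ± 0.16 (adjusted p = 0.99). Its fitted differences were 5.38 in EC-SP against EC-MP, 4.57 in CD157+CD200+ against CD157-CD200- and 4.42 in CD157-CD200+ against CD157-CD200-, and 1.82, 1.08 and 1.03 under normexp. The folds given as at least thus do not hold under normexp.

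Tbx3, a T-box repressor of developing liver and other organs, gave -0.07, -0.84 and 0.59 in EC-SP, against -4.23, -5.15 and -2.88 in EC-MP, with 1 EC-MP array well above background. It was 3.97 ± 0.56 higher in EC-SP (adjusted p = 0.0017), and 1.72 under normexp. In the subsets Tbx3 gave -1.07, -0.71 and -1.08 in CD157+CD200+, -0.87, -0.40 and -0.60 in CD157-CD200+ and -5.41, -5.03 and -5.13 in CD157-CD200-, where it was not well above background. It was higher in CD157+CD200+ by at least 8.40-fold (adjusted p = 8.9e-07) and higher in CD157-CD200+ by at least 10.5-fold (adjusted p = 7.9e-07) than in CD157-CD200-. The fitted log2 differences of 4.24 and 4.57 became 1.06 and 1.24 under normexp, where the folds given as at least do not hold. Tcf15, a basic helix-loop-helix factor of fatty-acid transport in endothelium, gave -0.27, -0.52 and 0.32 in EC-SP, against -2.97, -3.26 and -2.22 in EC-MP. It was 2.66 ± 0.33 higher in EC-SP (adjusted p = 9.5e-04), and 1.58 under normexp. The subsets gave -0.81, -0.78 and -0.35 in CD157+CD200+, -0.75, -0.64 and -0.56 in CD157-CD200+ and -4.85, -3.83 and -3.41 in CD157-CD200-, where 2 of 3 arrays were well above background. Tcf15 was 3.38 ± 0.33 higher in CD157+CD200+ than in CD157-CD200- (adjusted p = 8.4e-05), and 1.28 under normexp, while the CD200+ subsets had equal means of -0.65.

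Bcl6b, an endothelial zinc finger repressor, gave 2.88, 2.91 and 3.14 in EC-SP, against 1.63, 1.13 and 1.14 in EC-MP. It was 1.68 ± 0.23 higher in EC-SP (adjusted p = 0.0017). In the subsets it gave 2.33, 2.59 and 3.00 in CD157+CD200+, 1.66, 1.71 and 2.20 in CD157-CD200+ and 2.92, 2.16 and 3.28 in CD157-CD200-. CD157-CD200+ was lowest, but no pair was called, the largest being -0.93 ± 0.31 between CD157-CD200+ and CD157-CD200- (adjusted p = 0.094, 0.018 with the block, 0.046 with all 15 arrays in 1 fit and 0.020 without CD157-CD200- replicate 2). Epas1, a hypoxia-inducible factor abundant in endothelium, averaged 7.58 ± 0.23 in EC-SP and 6.84 ± 0.39 in EC-MP (0.73 ± 0.26, adjusted p = 0.096, with 0.044 with the block and 0.036 with all 15 arrays in 1 fit) and between 7.44 and 7.73 in the means of the subsets.

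The 3 subsets share arrays in their comparisons, so the counts are set side by side only. In CD157-CD200+ against CD157-CD200-, 8 factors rose and 8 fell (43.2%, beside 11.8% of all features, of which 6.31% higher and 5.52% lower), with a median of -0.02 beside 0.02. The risers were Lmo2, Gata6, Foxc1, Foxc2, Foxf1, Dach1, Tcf15 and Tbx3, and the others were Ets1, Ets2, Nr2f1, Maf, Meis1, Esrrb, Hlx and Tfec. In that comparison the replicate block gave 10 risers and 9 fallers, and it called 5280 of all features, against 2805 without it. The F test over the 3 subsets called 18 of 37 factors (48.6%), beside 13.9% of all features. Between CD157+CD200+ and CD157-CD200+ no factor was called lower, beside 0.245% of all features. There 10 factors had an unadjusted p under 0.05 in limma. The share of all features with such a p was not counted, so the 10 have no background beside them.

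Whether the EC-SP minus EC-MP difference was of the same size as the CD157+CD200+ minus CD157-CD200- difference was tested in 1 fit of all 15 arrays. The result was called for 9 of 37 factors (24.3%, beside 5.81% of all 22588 features, or 2.49% positive and 3.32% negative), 4 positive and 5 negative. With the replicate block 11 were positive and 7 negative, and 3480 of all features were called, against 1313. The 9 added by the block were Fli1, Ets2, Sox17, Sox18, Mef2c, Dach1 and Hlx, positive (adjusted p = 0.031, 0.0025, 0.0041, 0.045, 0.042, 0.023 and 5.9e-04), and Klf2 and Tfec, negative (0.010 and 0.0040). Of these, Ets2, Sox17, Klf2 and Dach1 also passed under normexp (0.036, 0.032, 0.035 and 0.022). Gata2 (1.89 ± 0.30, adjusted p = 0.0013), Bcl6b (1.82 ± 0.40, adjusted p = 0.012) and Ets1 (1.46 ± 0.26, adjusted p = 0.0028) had the more positive difference in EC-SP against EC-MP. Gata6 (-2.07 ± 0.31, adjusted p = 7.7e-04), Foxc1 (-1.98 ± 0.33, adjusted p = 0.0018) and Foxc2 (-2.38 ± 0.56, adjusted p = 0.020) were raised less there than in CD157+CD200+ against CD157-CD200-. For Gata6 and Foxc1 the value was -1.31 and -1.02 under normexp, and that of Foxc2 was lost both under it (-1.17, adjusted p = 0.055) and on leaving out EC-MP replicate 3 (0.055). Gata4 (-1.64 ± 0.28, adjusted p = 0.0022) and Nr2f2 (-1.21 ± 0.28, adjusted p = 0.018) were lowered more in EC-SP. Esrrb gave 2.85 ± 0.79 (adjusted p = 0.048), with the lower group under background in both sorts, so that the value rests on signals with only an upper bound. It was lost on leaving out 11 of the 15 arrays in turn (adjusted p between 0.059 and 0.12), with quantile normalization (0.099) and with the authors' deposited series table (0.062), and all of these directions were kept. The 11 were every EC-MP and CD157-CD200- array, EC-SP replicates 2 and 3, CD157+CD200+ replicates 1 and 2 and CD157-CD200+ replicate 3. Without a filter on dim probes Nr2f2, Foxc2 and Esrrb were lost (0.050, 0.056 and 0.12). The sorts were also run on different slides, in different scans and with different software versions, which cannot be told apart from the sort in this test. For Foxf1, Maf, Tbx3 and Tcf15 the differences in both sorts were not shown to differ (-0.76 ± 0.70, 0.33 ± 0.37, -0.27 ± 0.63 and -0.73 ± 0.49, adjusted p = 0.73, 0.81, 0.95 and 0.55), though with the mean of its probes that of Foxf1 was -2.26 (adjusted p = 0.014).

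**Figure D4:**
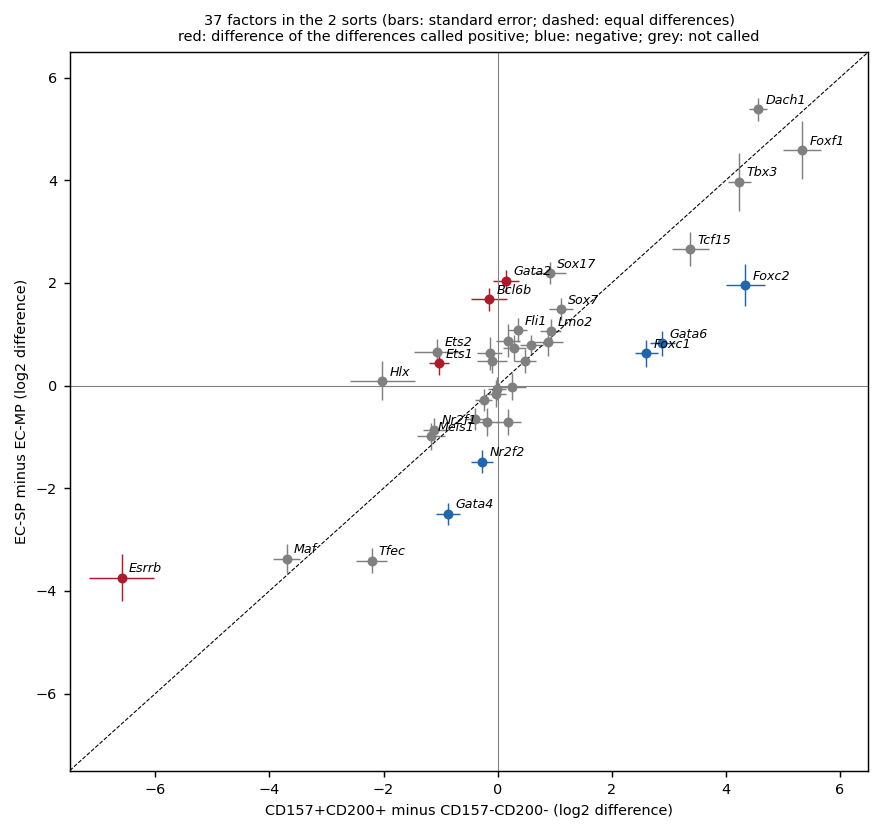
Log2 difference of each of the 37 tested factors in CD157+CD200+ minus CD157-CD200- (horizontal) and EC-SP minus EC-MP (vertical), with standard errors as bars, n = 3 arrays per group; the dashed line marks equal differences. Red and blue points are the 9 factors whose difference of the differences was called, and Gata6, Foxc1 and Foxc2 lie below the line while Gata2 and Bcl6b lie above it.

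Related genes outside the list were counted beside all features, of which 16.5% were called in EC-SP against EC-MP and 15.2% in CD157+CD200+ against CD157-CD200-. Of 14 tested other ETS factors, 6 rose and none fell in EC-SP against EC-MP (median 0.57), and 1 rose and 2 fell in CD157+CD200+ against CD157-CD200- (median 0.04). Etv1, an ETS activator, fell by 2.42 ± 0.24 in CD157+CD200+ (adjusted p = 1.0e-04), while its difference in EC-SP was -1.71 ± 0.57 (adjusted p = 0.073, and 0.036 with the block). The repressor Erf rose by 1.09 ± 0.22 in EC-SP (adjusted p = 0.010) and by 1.08 ± 0.21 in CD157+CD200+ (adjusted p = 0.0064). Etv5 fell by 1.11 ± 0.19 in CD157+CD200+ (adjusted p = 0.0033). Of 28 tested relatives in the GATA, SOX, KLF, FOX and nuclear receptor families, 11 rose and 1 fell in EC-SP, and of 29 in the subsets 8 rose and 1 fell in CD157+CD200+ against CD157-CD200-. Nr4a1, an immediate early receptor, was 1.87 ± 0.23 higher in EC-SP (adjusted p = 8.1e-04). Sox13 was 1.68 ± 0.23 (adjusted p = 7.3e-04) and Foxp1 1.70 ± 0.26 (adjusted p = 0.0014) higher in CD157+CD200+ than in CD157-CD200-. Of 39 tested partners of the factors 9 rose and 1 fell in EC-SP, and of 40 in the subsets 5 rose and none fell in CD157+CD200+, a share near that of all features. Lmo1, a paralogue of Lmo2, was higher in EC-SP by at least 9.01-fold (adjusted p = 8.1e-04) and higher in CD157+CD200+ than in CD157-CD200- by at least 4.90-fold (adjusted p = 1.1e-06). The small MAF protein Maff rose by 2.60 ± 0.25 in EC-SP (adjusted p = 2.8e-04), opposite to Maf, and the oxygen sensor Egln3 by 2.35 ± 0.27 in CD157+CD200+ (adjusted p = 2.7e-04).

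Genes known to lie downstream of the factors were counted beside the same shares, 16.5% and 15.2% of all features. Of 16 pan-endothelial ETS targets, 1 rose and 2 fell in EC-SP, near the share of all features, and 3 rose and 3 fell in CD157+CD200+ against CD157-CD200-. In CD157+CD200+ the receptor Kdr (-1.59 ± 0.20, adjusted p = 4.1e-04) and the junction protein Cldn5 (-1.42 ± 0.17, adjusted p = 3.3e-04) were lower. Pecam1 was higher there (1.09 ± 0.16, adjusted p = 0.0014). In EC-SP, Kdr and Cldn5 differed by -0.15 ± 0.21 and -0.02 ± 0.36 and were not called (adjusted p = 0.70 and 0.99). Of 13 arterial genes downstream of Notch and SOXF, 10 rose and 2 fell in EC-SP (median 1.75), and 7 rose and 2 fell in CD157+CD200+ (median 0.97). Gja5, an arterial gap junction protein, rose by 5.95 ± 0.18 in CD157+CD200+ (adjusted p = 1.3e-07), the Notch ligand Jag1 by 2.80 ± 0.19 there (adjusted p = 7.8e-06) and the Notch target Hey1 by 2.88 ± 0.25 in EC-SP (adjusted p = 1.7e-04). Of 16 venous and lymphatic genes 3 rose and 10 fell in EC-SP (median -2.22), and of 14 in the subsets 6 rose and 4 fell in CD157+CD200+ (median -0.27). Vwf, which encodes von Willebrand factor, differed by 0.21 ± 0.35 in EC-SP (adjusted p = 0.77) and was 7.86 ± 0.27 higher in CD157+CD200+ (adjusted p = 1.9e-07). The adhesion molecule Selp rose by 2.27 ± 0.39 in EC-SP (adjusted p = 0.0049) and by 5.29 ± 0.26 in CD157+CD200+ (adjusted p = 1.0e-06). The hyaluronan receptor Lyve1 differed by -5.27 ± 0.26 in EC-SP (adjusted p = 1.8e-05) and by -5.41 ± 0.25 in CD157+CD200+ (adjusted p = 8.7e-07). The genes of this list thus went different ways, and whether its counts bear on a venous or lymphatic identity was not tested.

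The sinusoidal genes, many of which depend on Gata4 in liver, fell in EC-SP and in CD157+CD200+, as Gata4 and Maf did. In CD157-CD200+ against CD157-CD200-, 14 of 15 fell too (median -2.31), as did Maf. Gata4 was not called there, at -0.12 ± 0.21 (adjusted p = 0.87). A link between these genes and either factor was not tested. Of 13 tested in EC-SP against EC-MP, 12 fell and none rose (median -4.06), and of 15 in the subsets 14 fell and none rose in CD157+CD200+ against CD157-CD200- (median -2.17). Clec4f stands both in this list and in the Kupffer cell and macrophage list below, and differed by -2.04 ± 0.27 in CD157+CD200+ (adjusted p = 6.0e-04). The scavenger receptor Stab2 differed by -5.38 ± 0.35 in EC-SP (adjusted p = 4.1e-05) and by -7.07 ± 0.19 in CD157+CD200+ (adjusted p = 5.6e-08), and the nuclease Dnase1l3 by -5.70 ± 0.29 and -7.42 ± 0.22 (adjusted p = 1.8e-05 and 1.0e-07). Oit3 differed by -6.34 ± 0.32 and -5.62 ± 0.18 (adjusted p = 1.8e-05 and 1.5e-07). Of 12 genes downstream of Klf2 and Klf4, 3 rose and 2 fell in EC-SP, and 7 rose and 1 fell in CD157+CD200+. The list was not split into genes that these factors raise and genes that they lower. Its counts therefore give no direction of Klf2 or Klf4 activity, which was not tested. The vasoconstrictor peptide gene Edn1 differed by -0.49 ± 0.28 in EC-SP (adjusted p = 0.28) and rose by 6.24 ± 0.31 in CD157+CD200+ (adjusted p = 1.2e-06). The quinone reductase Nqo1 fell by 1.23 ± 0.31 in EC-SP (adjusted p = 0.028) and rose by 3.03 ± 0.21 in CD157+CD200+ (adjusted p = 9.6e-06), and Ace, the angiotensin-converting enzyme, rose by 2.70 ± 0.23 and 4.63 ± 0.44 (adjusted p = 1.6e-04 and 7.1e-05).

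Markers of other liver cells moved with some of these comparisons. Hepatocyte markers had mean levels between -0.76 and -0.30 on the CD157+CD200+ arrays, between -0.77 and -0.63 on the CD157-CD200+ arrays and between 0.58 and 0.93 on the CD157-CD200- arrays. Of 9 tested, 6 fell in CD157+CD200+ and 8 in CD157-CD200+ against CD157-CD200-, among them Fgb at -2.77 ± 0.26 in CD157+CD200+ (adjusted p = 5.9e-05). In EC-SP against EC-MP 3 of 8 rose and 2 fell, with mean levels from -1.21 to -1.0 in EC-SP and from -1.03 to -0.86 in EC-MP. Kupffer cell and macrophage markers ran from -1.11 to -0.37 in CD157+CD200+, from -0.90 to -0.25 in CD157-CD200+ and from 0.33 to 0.66 in CD157-CD200-, and 4 of 9 fell in CD157+CD200+, including Cd5l (-2.33 ± 0.38, adjusted p = 0.0024). In EC-SP against EC-MP 1 of 6 fell, with levels from -1.83 to -1.36 in EC-SP and from -1.26 to -0.36 in EC-MP. Timd4 was well above background on no array, and Vsig4 on none of EC-SP. Maf is also a macrophage factor, and Gata4, Prox1 and Hhex are also known from hepatocytes.

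Cholangiocyte markers ran from -0.91 to -0.67 in EC-SP and from -2.66 to -2.12 in EC-MP, and 5 of 7 rose in EC-SP, among them Krt19 (2.62 ± 0.29, adjusted p = 5.1e-04), while Cftr was well above background on no array. They ran from -1.56 to -0.95 in CD157+CD200+, from -2.5 to -1.82 in CD157-CD200+ and from -2.29 to -1.73 in CD157-CD200-, with none called by limma between CD157+CD200+ and CD157-CD200-, where Sox9 and Spp1 had an unadjusted p under 0.05. Of 8 stellate, fibroblast and smooth muscle markers 1 rose and 2 fell in EC-SP, and 3 rose and 2 fell in CD157+CD200+. Among all features, 16.5% were called in EC-SP against EC-MP and 15.2% in CD157+CD200+ against CD157-CD200-. Their mean levels ran from -2.90 to -2.09 in EC-SP, from -3.05 to -2.45 in EC-MP, from -1.76 to -1.29 in CD157+CD200+, from -1.96 to -1.13 in CD157-CD200+ and from -2.37 to -1.80 in CD157-CD200-. The pericyte gene Rgs5 rose by 3.75 ± 0.33 in EC-SP (adjusted p = 1.7e-04), and the stellate cell gene Lrat was at least 3.84-fold lower there (adjusted p = 5.1e-05). Among haematopoietic markers Cd34, which endothelium also expresses, rose by 3.53 ± 0.28 in EC-SP (adjusted p = 1.1e-04) and by 3.83 ± 0.18 in CD157+CD200+ (adjusted p = 8.9e-07), and the platelet gene Pf4 fell by 3.10 ± 0.72 and by 4.10 ± 0.71 (adjusted p = 0.019 and 0.0034). Among lymphocyte markers, Cd3d, Ms4a1, Klrb1c and Il7r were well above background on no array. No tested lymphocyte marker was called in EC-SP or in CD157+CD200+ by limma, and Cd79a in CD157+CD200+ (-1.08 ± 0.34, adjusted p = 0.065, and 0.032 with the block) was the 1 with an unadjusted p under 0.05. Haematopoietic levels ran from -3.26 to -2.5 in EC-SP, from -2.85 to -2.28 in EC-MP, from -3.41 to -2.25 in CD157+CD200+, from -3.09 to -2.63 in CD157-CD200+ and from -2.36 to -1.63 in CD157-CD200-. The mesothelial genes Msln and Wt1 were well above background on no array. The other tested genes of that list were Gpm6a, which fell by 1.29 ± 0.22 in EC-SP (adjusted p = 0.0042) and rose by 5.47 ± 0.32 in CD157+CD200+ (adjusted p = 3.2e-06), and Krt8, which rose by 2.06 ± 0.26 in EC-SP (adjusted p = 9.0e-04). The part of other cell types in the factors' differences was not tested.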

How the data were processed

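RNA from 15 samples was hybridised to one-colour Agilent arrays of 59305 spots, 55681 probes and 28059 probes with a gene symbol. The deposited scanner files hold intensity values from Agilent Feature Extraction, version 10.10.1.1 for EC-SP and EC-MP and 11.5.1.1 for the subsets, per the file headers, so each sort was fitted on its own. The authors' deposited series table holds linear intensity, each column being the scanner value times 1 constant. It was not centred, and the basis of the constant is not stated in the files used. Its column medians were 256.5, 299.6 and 286.1 in EC-SP, 299.5, 331.2 and 335.4 in EC-MP, 255.8, 278.4 and 252.3 in CD157+CD200+, 265, 293 and 262.8 in CD157-CD200+, and 218.3, 296.6 and 238.5 in CD157-CD200-.

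The deposited processed signals were taken to log2 and the log2 of each array's 75th percentile was subtracted. Spots flagged as outliers or by hand, 110 to 213 per array, were set missing, and none was saturated. A gene was read from its brightest probe that passed the filter. The list's genes had 52 probes, 27 genes having 1 and none over 3. limma 3.58.1 in R 4.3.3 gave two-sided tests, adjusted over all features by Benjamini-Hochberg, after a check on simulated data. A fold written as "at least" sets the bright group's mean against the lowest signal well above background on the dim group's arrays, or the dim probe's own where higher. It is a bound on these scaled signals only, and normexp gave smaller differences for Dach1, Esrrb and Tbx3. Values of each array are printed for the 22 factors called with a log2 difference of at least 1 in EC-SP against EC-MP or CD157+CD200+ against CD157-CD200-, and from every other list at most 3 called genes with the lowest adjusted p are named, or, with no called gene, that of lowest p. The factors and lists were chosen with earlier results of these data known.

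Replicate numbers coincide with slide and scan within a sort. Deviations from group means correlated at 0.27 to 0.33 between same-numbered EC-SP and EC-MP arrays (3 pairs) and at 0.27 to 0.63 among the subsets (9 pairs), against -0.20 to -0.08 (6 pairs) and -0.49 to 0.03 (18 pairs) for different numbers, so same-numbered arrays varied together. Paired samples and an effect of slide or scan cannot be told apart here. Calls rest on the fit without the block, and block results are given beside them. Alternatives were normexp, quantile normalization, the series table, no filter or a stricter one, the mean of a gene's probes, a replicate block, 1 fit of all arrays and leaving out each array. Normexp (offset 50) used median signals, chosen after seeing the files, which hold no mean-signal column.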

Additional observations from a re-analysis of the deposited data

Results flagged for a closer look

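For 9 factors the difference between EC-SP and EC-MP was not of the same size as that between CD157+CD200+ and CD157-CD200-, by limma's test of the difference of the differences. It was 1.46 for Ets1, 1.89 for Gata2, 1.82 for Bcl6b and 2.85 for Esrrb, and it was -1.64 for Gata4, -2.07 for Gata6, -1.21 for Nr2f2, -1.98 for Foxc1 and -2.38 for Foxc2, all on the log2 scale. For Esrrb the lower groups, EC-SP and CD157+CD200+, were well above background on no array, and its call was kept in 7 of 21 other settings. Ets1 and Bcl6b had opposite signs in the 2 sorts, at 0.43 and 1.68 in EC-SP against EC-MP and -1.03 and -0.15 in CD157+CD200+ against CD157-CD200-, and of these the values of 0.43 and -0.15 were not called. The other 7 had 1 sign in both sorts.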

How the results depend on the processing

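No call changed sign in any setting that was run. Of 63 calls, 45 were kept in every other setting with a value, 16 were lost on leaving out 1 array and 17 in another setting, and the cause was not tested. The replicate block lost no call, and the calls it added are given above. With it, the factors called higher were 14 in CD157+CD200+ against CD157-CD200-, 3 (with 3 lower) against CD157-CD200+, and 11 in the difference of the differences. Over all features the block called 6923, 725 and 3480 there and 5280 in CD157-CD200+ against CD157-CD200-, against 3609, 248, 1313 and 2805. Under normexp 5 factors rose and 2 fell in CD157+CD200+ against CD157-CD200+, and 7 were positive in the difference of the differences, where all features split into 830 positive and 688 negative, against 562 and 751. Without a filter these were 0 higher in CD157+CD200+ against CD157-CD200+, 4 lower in CD157-CD200+ against CD157-CD200- and 3 negative, and all-feature calls were 2284 in EC-SP against EC-MP and 852 in the difference of the differences, against 3966 and 1313. With only probes above background on every array, Foxc2, Foxf1, Dach1, Tcf15, Tbx3 and Esrrb were no longer tested in the subsets. Then 5, 0 and 3 factors rose in CD157+CD200+ against CD157-CD200-, CD157+CD200+ against CD157-CD200+, and CD157-CD200+ against CD157-CD200-. The 5 include Klf4, which was added, and no factor still tested lost its call. The all-feature counts were 2837, 159 and 2191, against 3609, 248 and 2805. The series table moved the median of all features to -0.17 in EC-SP against EC-MP (1649 higher and 2495 lower, against 2194 and 1772) and to -0.14 in the difference of the differences (399 and 943).

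On leaving out 1 array, 10 to 12 factors rose and 5 to 6 fell in EC-SP, 9 to 10 rose and 6 to 8 fell in CD157+CD200+ against CD157-CD200-, 0 to 1 rose and 0 to 0 fell in CD157+CD200+ against CD157-CD200+, 7 to 8 rose and 4 to 8 fell in CD157-CD200+ against CD157-CD200-, 3 to 5 were positive and 4 to 6 negative in the difference of the differences, and 14 to 18 passed the F test. Leaving out 1 array also changed the number of all features called. It was 2710 to 3328 in EC-SP against EC-MP, against 3966 with every array. In CD157+CD200+ it was 2669 to 3420 against CD157-CD200- and 103 to 262 against CD157-CD200+, beside 3609 and 248. In CD157-CD200+ against CD157-CD200- it was 2005 to 2778, beside 2805. For the difference of the differences it was 940 to 1269, beside 1313, and for the F test 2442 to 3040, beside 3297. Signals near background limit Dach1, Esrrb, Etv2, Foxc2, Foxf1, Tbx3 and Tcf15.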
